A study of Mus musculus with 2 samples.

Results

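The genes described here are the cadherin superfamily members of differentiating mouse embryonic stem cells (ESCs): the numbered cadherins, the protocadherins, and the Fat, Dachsous and Celsr genes. They were taken by gene symbol alone (Cdh followed by a number, all symbols that begin with Pcdh, Fat1 to Fat4, Dchs1 and Dchs2, and Celsr1 to Celsr3), so no measured value chose them. The rule found 102 of the 24354 genes in the expression table: 23 numbered cadherins, 59 clustered protocadherins, 12 non-clustered protocadherins and 8 genes of the Fat group. Dchs2 was not analysed here.

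The data were 2 RNA-seq libraries. The control library, Diff–CONT, is labelled wild type, and the study's methods describe its line as derived from Ino80 2f/2f blastocysts. The second library, Diff–iKO, is labelled an Ino80 knockout, from a line with the same floxed alleles plus ROSA26-CreER, a tamoxifen-activated Cre recombinase made in all cells. Ino80 is the ATPase subunit of the INO80 chromatin remodelling complex. Per those methods, embryoid bodies of both lines were moved to gelatin at day 4. From the next day they were kept for 7 days in mesodermal differentiation medium with BMP4 and 0.5 µM 4-hydroxytamoxifen, which controls received too. The comparison asks how the genes are expressed in differentiating cells with and without Ino80.

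There was 1 library per condition and 1 line per genotype, so no replicate error can be estimated, no p-value is given, and library, line and genotype cannot be told apart. Values are FPKM, which scale the fragments of a gene to transcript length and library size and so can be compared between genes. The depth recovered from the FPKM steps was estimated at 27957000 fragments on genes in Diff–CONT and 21796675 in Diff–iKO, a ratio of 1.28. Intervals are exact 95% Clopper-Pearson intervals of the log2 FPKM ratio and cover counting error only. Ino80 itself was listed at 8.90 FPKM in Diff–CONT and 10.3 FPKM in Diff–iKO (log2 ratio 0.21, interval 0.10 to 0.31). The gene total was therefore not lower in the library labelled Diff–iKO. A total over the whole gene can hold fragments of exons outside a deleted part, so it does not measure the deletion and leaves the label unchecked. Accordingly, "higher" and "lower" below always mean in that library as labelled.

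Classical cadherins are calcium-dependent adhesion receptors that bind the same cadherin on the next cell and are tied to actin through catenins. E-cadherin is typical of epithelia and pluripotent cells, and N-cadherin and several type II cadherins of mesenchyme and mesoderm. Clustered protocadherins are made from 3 neighbouring gene arrays in which each variable exon has its own promoter, and they give neurons a surface identity. Fat and Dachsous proteins are giant cadherins that bind each other in tissue growth control and planar polarity, while Celsr proteins are the mammalian Flamingo receptors of planar cell polarity.

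Members were more often lower than higher in Diff–iKO. Of the 102 members, 71 were lower and 31 higher, whereas 49.7% of all genes above 0 were lower. A fold change (FC) of at least 2 together with an FPKM of at least 2 in either library was used as the cut-off. In all, 40 members reached FPKM 2, of which 32 did so in both libraries, 6 in Diff–CONT alone and 2 in Diff–iKO alone. Of these 40, 6 were lower past the cut-off (15.0%, against 8.39% of the 12376 genes that reached FPKM 2) and 0 were higher (against 6.73%). The members past the cut-off were Pcdh8, Cdh13, Pcdhgc4, Cdh5, Fat4 and Fat3. Of these, Pcdh8, Pcdhgc4 and Fat3 reached FPKM 2 in Diff–CONT alone, so the minimum itself favoured their being lower. Cdh13, Cdh5 and Fat4 reached it in both libraries. Nearest outside the cut-off were Pcdhgc3, Pcdh7 and Pcdh18, at log2 ratios of -0.96, -0.93 and -0.93. By counting error alone, 26 of the 40 were lower and 8 higher, against 39.1% and 38.7% of all genes at that level. For the 54 members whose mean FPKM was 1 or more, the median log2 ratio was -0.44 (pseudocount 0.1), and for all 13145 genes at that level it was -0.008.

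**Figure D1:**
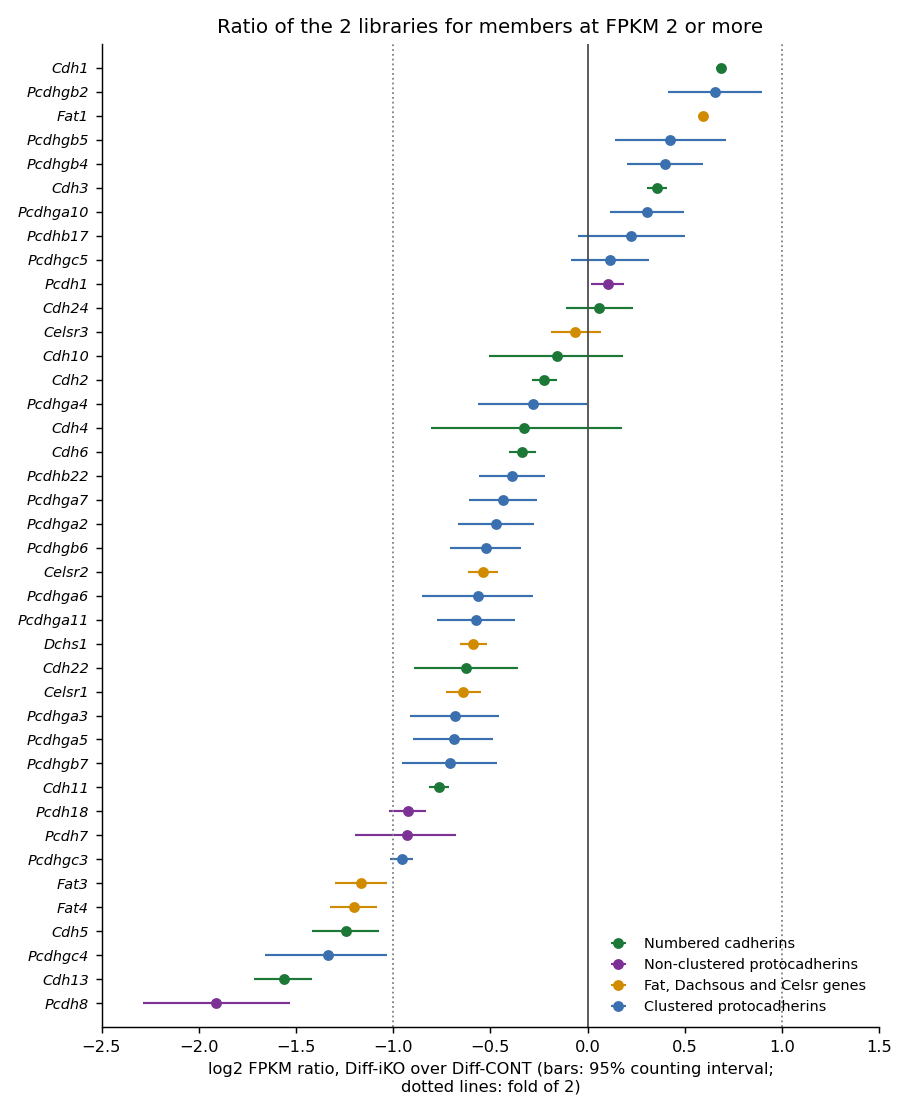
The plot of ratios shows, for the 40 members at FPKM 2 or more, the log2 FPKM ratio of Diff–iKO over Diff–CONT (x axis) with its 95% counting interval, coloured by group. The 6 members left of the lower dotted line, a fold of 2, come from all 4 groups, and no point lies right of the upper one.

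Among the type I classical cadherins, the epithelial pair was higher and N-cadherin slightly lower. Cdh1, which encodes E-cadherin (chromosome 8, 106603351 to 106670246, plus strand, mm10), was the most abundant of all 102 members, at 166 FPKM in Diff–CONT and 268 FPKM in Diff–iKO (log2 ratio 0.69, interval 0.66 to 0.71). Cdh3, which encodes P-cadherin and lies just upstream of Cdh1 on the same strand (chromosome 8, 106510891 to 106557297), stood at 53.3 and 68.3 FPKM (0.36, 0.31 to 0.41). Both genes were higher beyond counting error and under the fold of 2. Cdh2, which encodes N-cadherin, stood at 36.6 FPKM in Diff–CONT and 31.3 FPKM in Diff–iKO (-0.22, -0.29 to -0.16). Cdh4, the retinal cadherin gene, gave 3.18 and 2.54 FPKM with an interval that included 0 (-0.81 to 0.18). That interval is wide because the fragments of Cdh4 were computed from the shorter of 2 transcripts. Cdh15, the muscle cadherin gene, stayed below FPKM 2 at 0.238 and 0.587. The FPKM of Cdh1 was 4.55 times that of Cdh2 in Diff–CONT and 8.55 times in Diff–iKO.

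The type II classical cadherins were mostly lower. Cdh11, known from mesenchyme and bone-forming cells, ranked 2 among classical cadherins in Diff–CONT at 62.1 FPKM and 3 in Diff–iKO at 36.6 FPKM (-0.76, -0.82 to -0.71). The FPKM of Cdh1 was 2.68 times that of Cdh11 in Diff–CONT and 7.32 times in Diff–iKO. Cdh5, which encodes the endothelial VE-cadherin (chromosome 8, 104101625 to 104144511, plus strand), was listed at 10.3 FPKM in Diff–CONT and 4.34 FPKM in Diff–iKO (-1.24, -1.42 to -1.07). It was the only classical cadherin past the cut-off. Cdh6, known from kidney and neural crest, stood at 18.02 and 14.3 FPKM (-0.34, -0.41 to -0.26), and Cdh22 at 3.45 and 2.23 FPKM (-0.63, -0.89 to -0.36). Cdh24 at 6.499 and 6.77 FPKM and Cdh10 at 2.03 and 1.82 FPKM had intervals that included 0. The other 7 type II genes were below FPKM 1 in both libraries, and Cdh19 was listed at 0 in Diff–CONT.

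Summed over its members, type I went from 259.7 FPKM in Diff–CONT to 370.5 FPKM in Diff–iKO (log2 ratio 0.51, interval 0.49 to 0.53). Type II went from 104.6 to 67.5 FPKM (-0.63, -0.67 to -0.59). Cdh1 made up 45.7% of the FPKM of all classical cadherins in Diff–CONT and 61.1% in Diff–iKO, while the share of Cdh11 was 17.1% and 8.35% and that of Cdh2 10.04% and 7.15%. The classical cadherin mRNA of Diff–iKO was thus weighted towards Cdh1. Of the remaining numbered cadherins, which lack the classical cytoplasmic tail, Cdh13 alone reached FPKM 2. Cdh13 encodes T-cadherin, a lipid-anchored cadherin and adiponectin receptor of vessels and heart (chromosome 8, 118283733 to 119324921, plus strand). It stood at 17.4 FPKM in Diff–CONT and 5.89 FPKM in Diff–iKO (-1.56, -1.71 to -1.42). Cdh16, Cdh17, Cdh23 and Cdh26 were all below FPKM 0.3.

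**Figure D2:**
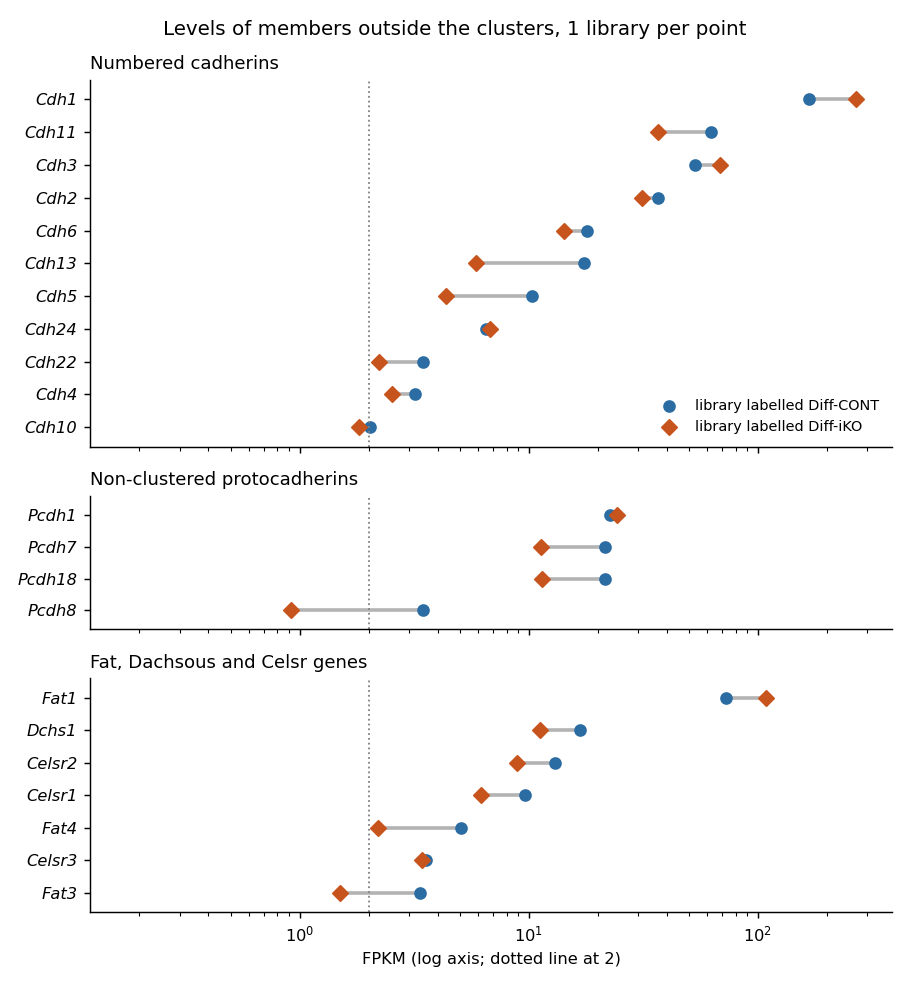
The plot of levels gives FPKM on a log axis for the 22 members outside the clusters that reached FPKM 2, with circles for Diff–CONT and diamonds for Diff–iKO, 1 library each. Cdh1 and Fat1 are the highest of their groups in both libraries and lie further right in Diff–iKO, while Cdh13, Cdh5, Pcdh8, Fat4 and Fat3 lie further left.

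Many non-clustered protocadherins are homophilic receptors, and their cytoplasmic motifs split most into delta-1 and delta-2 genes, with Pcdh12, Pcdh15 and Pcdh20 in neither. In all, 10 of the 12 were lower in Diff–iKO, against 49.7% of all genes above 0. For 7 of the 12 the interval lay below 0 (58.3%, against 31.5%), and the median over the 9 with a mean FPKM of at least 1 was -0.71. In the delta-2 group, Pcdh8 (paraxial protocadherin, expressed in presomitic mesoderm; chromosome 14, 79766775 to 79771312, minus strand) stood at 3.45 FPKM in Diff–CONT and 0.919 FPKM in Diff–iKO (-1.91, -2.29 to -1.53), the lowest ratio among the 40 members at FPKM 2 or more. Pcdh18 gave 21.6 and 11.4 FPKM (-0.93, -1.02 to -0.83). Below FPKM 2 in both libraries, Pcdh17 gave 1.64 and 0.666 (-1.30, -1.55 to -1.04) and Pcdh10 1.97 and 1.16 (-0.76, -1.08 to -0.43). Pcdh19 was the delta-2 exception at 1.13 and 1.34 FPKM, with an interval that included 0 (-0.01 to 0.50). The delta-2 genes summed to 29.8 FPKM in Diff–CONT and 15.5 FPKM in Diff–iKO (-0.95, -1.03 to -0.87).

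Of the 4 delta-1 genes, 3 were lower. Pcdh1, found in airway and other epithelia, was the highest non-clustered member in both libraries, at 22.5 and 24.2 FPKM (0.10, 0.02 to 0.19), but its ratio was 0.009 with both libraries scaled to the same FPKM sum. Pcdh7 stood at 21.6 FPKM in Diff–CONT and 11.4 FPKM in Diff–iKO (-0.93, -1.20 to -0.68, wide because its fragments were computed from a short transcript), and Pcdh9 at 1.32 and 1.19 FPKM with an interval that included 0. Of the genes in neither group, Pcdh12, the vascular endothelial protocadherin gene, was at 1.38 and 0.958 FPKM (-0.53, -0.86 to -0.19), and Pcdh20 at 0.316 and 0.106 FPKM.

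The Fat group was led by Fat1, which was higher, while its other members at FPKM 2 or more were lower or did not differ beyond counting error. Fat1 encodes a giant cadherin of epithelial junctions and cell protrusions (chromosome 8, 44935447 to 45052257, plus strand), and stood at 72.3 FPKM in Diff–CONT and 109 FPKM in Diff–iKO (0.59, 0.57 to 0.61). Fat4, the receptor of Dachsous proteins (chromosome 3, 38886940 to 39011985, plus strand), was at 5.05 FPKM in Diff–CONT and 2.19 FPKM in Diff–iKO (-1.20, -1.32 to -1.09). Its ligand gene Dchs1 moved from 16.8 to 11.2 FPKM (-0.59, -0.66 to -0.52). Fat3, known from the developing nervous system (chromosome 9, 15910189 to 16501285, minus strand), was at 3.37 and 1.499 FPKM (-1.17, -1.30 to -1.03). The FPKM of Fat1 was 14.3 times that of Fat4 in Diff–CONT and 49.7 times in Diff–iKO, and Fat1 made up 58.4% and 75.8% of the FPKM of its group.

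Fat2 showed the widest gap within the group at a low level. It was at 0.0655 FPKM in Diff–CONT, about 28 fragments, and 1.42 FPKM in Diff–iKO, about 446 fragments (log2 ratio 4.44, interval 3.86 to 5.02), so it did not reach FPKM 2 in either library. The Flamingo receptors Celsr1 at 9.61 and 6.17 FPKM (-0.64, -0.73 to -0.55) and Celsr2 at 13.0 and 8.93 FPKM (-0.54, -0.62 to -0.46) were lower beyond counting error. Celsr3 stood at 3.57 and 3.42 FPKM with an interval that included 0 (-0.19 to 0.07). Fat, Dachsous and Celsr genes, with 6 of 8 lower, summed to 123.8 and 143.7 FPKM (0.22, 0.20 to 0.23), a sum that Fat1 sets.

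The promoters of the 3 members past the cut-off for which RefSeq entries (GRCm38.p6) were at hand are shown to give the sequence context of the lower genes. Each is the 250 bases before the RefSeq start of the gene on its own strand, which for Fat3 lies upstream of the start printed above, 5′ to 3′, with CG dinucleotides in capitals. In all, 28 of the 102 members had an entry, and Cdh5, Cdh13 and Pcdhgc4 had none.
Pcdh8, chr14:79771313-79771562, minus strand: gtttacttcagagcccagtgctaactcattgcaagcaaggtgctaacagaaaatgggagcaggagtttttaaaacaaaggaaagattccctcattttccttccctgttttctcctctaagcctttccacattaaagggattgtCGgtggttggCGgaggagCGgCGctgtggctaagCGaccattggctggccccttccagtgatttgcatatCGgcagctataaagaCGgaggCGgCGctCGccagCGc
Fat3, chr9:16502055-16502304, minus strand: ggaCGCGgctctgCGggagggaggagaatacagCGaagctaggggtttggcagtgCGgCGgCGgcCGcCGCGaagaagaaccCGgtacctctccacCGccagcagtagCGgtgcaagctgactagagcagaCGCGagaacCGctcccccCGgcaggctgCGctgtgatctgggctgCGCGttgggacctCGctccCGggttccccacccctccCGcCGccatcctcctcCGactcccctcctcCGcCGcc
Fat4, chr3:38886690-38886939, plus strand: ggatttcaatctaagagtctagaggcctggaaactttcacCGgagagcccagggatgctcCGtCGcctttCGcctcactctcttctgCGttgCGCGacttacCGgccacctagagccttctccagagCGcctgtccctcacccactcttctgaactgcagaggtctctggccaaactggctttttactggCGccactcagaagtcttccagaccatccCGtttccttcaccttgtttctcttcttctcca
Fat3 carried 27 CG dinucleotides, more than 91.8% of the 27025 promoters in the RefSeq table, and Pcdh8 and Fat4 carried 11 each, more than 64.0%. The median was 10.5 over the 28 member promoters and 6 over all. It was 14 over the 12 members with a promoter that reached FPKM 2, and 7.5 over the 16 that did not. A TATAAA match lay 30 bases before the start of Pcdh8. On either strand, TATAAA occurred in 13.0% of all promoters and in 2 of the 28 of members (Pcdh8 and Pcdh15), and the E-box CACCTG in 17.1% and in 4 of 28 (Cdh7, Celsr2, Fat1 and Pcdh15). The Fat4 window overlaps an exon of C230034O21Rik, a gene on the opposite strand.

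The clustered protocadherins lie as 3 arrays on chromosome 18. In Pcdha and Pcdhg, each gene splices its own variable exon to constant exons that all genes of the array share. In the annotation, Pcdha1 and Pcdhac2 share 2860 exonic bases (54.5% of Pcdha1), and Pcdhga1 and Pcdhgc3 share 2119 (45.2% of Pcdhga1). Pcdhb2 and Pcdhb3 share no exonic base, but Pcdhb genes are closely similar copies of a single-exon gene. Fragments from shared or near-identical sequence had to be divided among genes, so the values of single genes are uncertain and neighbours are not independent. Pcdha6, for example, was listed above 0 yet below the value of 1 fragment. The sum over an array depends less on that division.

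All 3 sums were lower in Diff–iKO. Pcdhg, by far the most abundant, summed to 121 FPKM in Diff–CONT and 82.5 FPKM in Diff–iKO (-0.56, -0.59 to -0.52). Pcdhb summed to 23.4 and 15.8 FPKM (-0.56, -0.66 to -0.47), and Pcdha to 5.89 and 4.14 FPKM (-0.51, -0.67 to -0.35). The intervals of the sums are normal approximations to counting error. The Pcdhg sum rests on Pcdhgc3, which gave 51.3% of it in Diff–CONT and 38.8% in Diff–iKO, and without that gene it was 59.0 and 50.5 FPKM (-0.23, -0.28 to -0.17). The Pcdha sum likewise rests on Pcdhac2, without which its log2 ratio was -0.20.

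The C-type genes, which sit at the 3′ ends of the Pcdha and Pcdhg arrays and differ in regulation from the alternate genes, included the 2 lowest ratios among the clustered genes that reached FPKM 1 in a library, those of Pcdhac2 and Pcdhgc4. Pcdhgc3 was the most abundant protocadherin in both libraries, at 62.2 FPKM in Diff–CONT and 32.1 FPKM in Diff–iKO (-0.96, -1.02 to -0.90). Pcdhgc4, whose product needs a partner protocadherin to reach the surface, was at 2.60 and 1.03 FPKM (-1.33, -1.66 to -1.03). Pcdhac2 stayed below FPKM 2 at 1.90 and 0.666 (-1.51, -1.87 to -1.16). Pcdhgc5 went the other way, at 3.38 and 3.66 FPKM, with an interval that included 0 (-0.09 to 0.32), and Pcdhac1 was under FPKM 0.2. The 5 C-type genes summed to 70.2 FPKM in Diff–CONT and 37.5 FPKM in Diff–iKO (-0.91, -0.96 to -0.85), a sum that Pcdhgc3 sets.

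Of the 19 alternate Pcdhg genes, 10 were lower (52.6%) and 5 higher (26.3%) beyond counting error, against 31.5% and 30.7% of all genes above 0. The 12 Pcdhga genes summed to 36.1 and 28.8 FPKM (-0.32, -0.39 to -0.26), whereas the 7 Pcdhgb genes summed to 17.0 and 16.9 FPKM (-0.003, -0.09 to 0.09). Those lower and at FPKM 2 or more were Pcdhga2, Pcdhga3, Pcdhga4, Pcdhga5, Pcdhga6, Pcdhga7, Pcdhga11, Pcdhgb6 and Pcdhgb7, from Pcdhga7 at 5.66 and 4.18 FPKM (-0.44) to Pcdhga4 at 2.08 and 1.71 FPKM (-0.28, -0.56 to -0.002). Among these the lowest ratio was that of Pcdhgb7, at 3.30 and 2.02 FPKM (-0.71, -0.96 to -0.47). Those higher and at FPKM 2 or more were Pcdhgb2 at 2.02 and 3.18 FPKM (0.65, 0.41 to 0.90), Pcdhgb4 at 3.31 and 4.36 FPKM (0.40, 0.20 to 0.59), Pcdhgb5 at 1.56 and 2.09 FPKM (0.42, 0.14 to 0.71) and Pcdhga10 at 3.50 and 4.31 FPKM (0.30, 0.11 to 0.50). Below FPKM 2, Pcdhga9 was lower at 1.64 and 1.26 FPKM (-0.38, -0.71 to -0.07) and Pcdhga12 higher at 1.10 and 1.52 FPKM (0.46, 0.14 to 0.79).

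In the Pcdhb array the direction was nearly uniform. In all, 21 of 22 Pcdhb genes were lower in Diff–iKO, with a median of -0.40 over the 6 whose mean FPKM was 1 or more. Over all 22 the median was -0.59, against 0.002 for all genes above 0. For 13 of the 22 the interval lay below 0 and for 0 above it, against 31.5% and 30.7% of all genes above 0. Pcdhb22 was the highest, at 4.09 and 3.13 FPKM (-0.39, -0.56 to -0.22), and Pcdhb17 the exception, at 1.77 and 2.07 FPKM with an interval that included 0 (-0.05 to 0.50). No Pcdha gene reached FPKM 2, and 8 of the 15 were lower and 7 higher, some of them on almost no fragments. Beyond counting error, 4 Pcdha genes were lower (26.7%) and 1 was higher (6.7%), the latter on about 0 and 5 fragments.

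**Figure D3:**
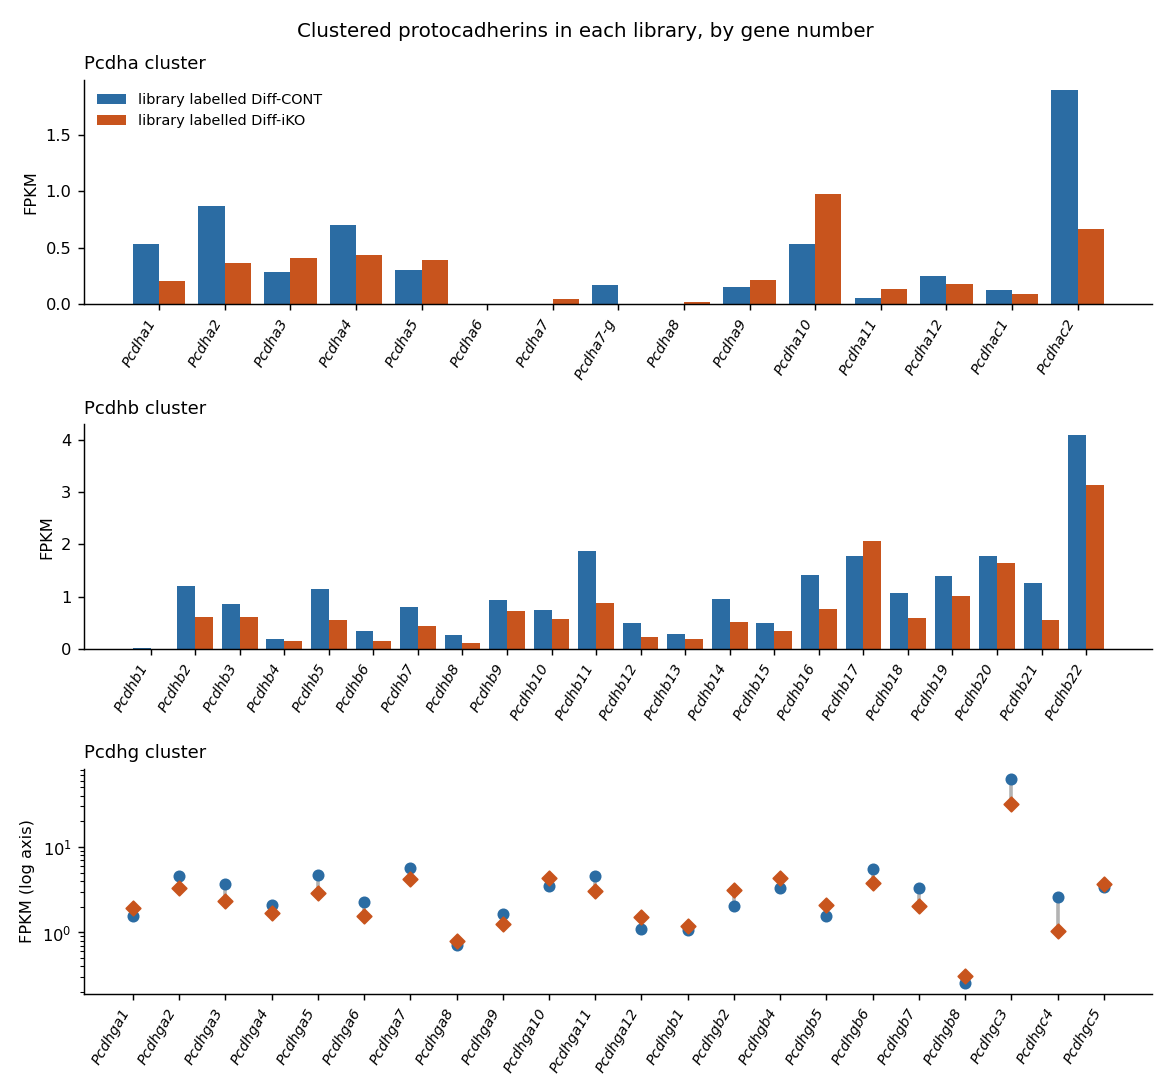
The plot of the arrays gives the FPKM of each clustered protocadherin by gene number, as bars from 0 for Pcdha and Pcdhb and as points on a log axis for Pcdhg, in blue for Diff–CONT and orange for Diff–iKO. Blue is above orange for 21 of 22 Pcdhb genes, and Pcdhgc3 at 62.2 and 32.1 FPKM stands above the rest of its array.

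Exons of genes on the opposite strand overlap 9 of the 40 members at FPKM 2 or more. They cover 55.2% of the exonic bases of Pcdhga10, 32.3% of Pcdhgc3, 29.0% of Pcdhga11, 16.4% of Pcdhgb7, 10.9% of Pcdh8 and 10.3% of Pcdhga7. For Fat4, Dchs1 and Fat1 the largest overlap with 1 such gene was 7.5%, 6.0% and 3.3%. The library kit keeps the strand, but whether fragments were counted by strand is not given in the sources used here.

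Lists of genes known to act with the members are given beside the shares of all genes past the cut-off, 8.39% lower and 6.73% higher. In lists this short, 0 or 1 gene past the cut-off is close to those shares. Of 16 catenins and junction linkers, 15 reached FPKM 2. Ctnna2, the neural alpha-catenin gene, alone was past the cut-off, at 6.23 and 2.78 FPKM, a call lost with a pseudocount of 1, and Ctnnb1, which encodes beta-catenin, was the highest at 391 and 307 FPKM. The median of the list was -0.04. Of 17 Fat, Dachsous and Flamingo partners, 14 were lower (median -0.40), with Fzd3, a Frizzled receptor gene of planar polarity, past the cut-off at 7.33 and 2.90 FPKM. With both libraries scaled to the same FPKM sum, 4 genes of this list and 1 of the regulators below were lower past the cut-off. The highest of that list was Rere, an atrophin gene, in Diff–CONT (33.0 and 25.0 FPKM) and Dvl1, a Dishevelled gene, in Diff–iKO (27.7 and 34.8 FPKM). None of 17 regulators known to act on the protocadherin arrays, such as CTCF and cohesin subunits, was past the cut-off (0 of 17), though 12 were lower (median -0.17). Rad21 was the highest at 83.4 and 70.1 FPKM, and Dnmt3b, a DNA methyltransferase gene, fell just short of the cut-off at 53.0 and 26.6 FPKM. The 13 cytoplasmic partners of protocadherins had a median of 0.05, 0 past the cut-off, and Ppp1ca as the highest at 200 and 166 FPKM. Of 13 desmosomal and other superfamily genes outside the members, 5 reached FPKM 2 and 0 were past the cut-off, and Clstn1, a calsyntenin gene, was the highest at 56.5 and 49.2 FPKM.

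Among factors listed as acting on Cdh1, all 8 repressors were lower beyond counting error (median -0.68), against 39.1% of all genes at FPKM 2 or more. Snai2 at 10.4 and 3.13 FPKM and Twist2 at 6.98 and 1.66 FPKM passed the cut-off (25.0%, against 8.39%). Tcf3 was the highest at 53.7 and 33.5 FPKM. Of 7 factors listed as promoting Cdh1 that reached FPKM 2, 4 were higher and 3 lower beyond counting error (median 0.53). The shares of all genes at that level were 38.7% and 39.1%. Klf4, at 4.77 and 21.9 FPKM, and Esrp2, at 4.85 and 11.97 FPKM, were higher past the cut-off (28.6%, against 6.73%). The lower factors were Esrp1, Grhl2 and Ovol2.

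Markers of several cell types moved between the libraries as well. In bulk RNA, fewer cells of a type and less RNA per cell cannot be told apart. Of all genes at FPKM 2 or more, 6.73% were higher and 8.39% lower past the cut-off, and 38.7% and 39.1% beyond counting error. Of 6 pluripotency markers, 5 were higher past the cut-off in Diff–iKO and all 6 were higher, with sums of 144 and 509 FPKM, and Pou5f1 was at 60.8 and 247 FPKM. Of 6 epithelial markers, 4 were higher beyond counting error, with Cldn4 past the cut-off, while Cldn6 was lower at 174 and 87.6 FPKM (sums 1378 and 1828 FPKM). Cdh1, Cdh3 and Fat1 were higher in the same library. Of 9 mesodermal and mesenchymal markers, Pdgfra, Col3a1 and Prrx1 were lower past the cut-off and Col1a1 was higher, so that the sums were 1909 and 1988 FPKM. All 7 visceral endoderm markers were lower past the cut-off, with sums of 219 and 11.3 FPKM, as were the 4 cardiomyocyte markers that reached FPKM 2, with sums of 47.7 and 9.10 FPKM for all 6. Cdh5 is itself on the endothelial list. Its fellow markers Kdr, Tek, Tie1 and Emcn were also lower past the cut-off, whereas Pecam1 was higher at 16.2 and 53.9 FPKM. The sums of that list were 52.6 and 67.0 FPKM. Among trophoblast markers 3 were higher and 2 lower past the cut-off (sums 82.2 and 64.6 FPKM), and among neural markers 5 of 6 were lower, with Dcx past the cut-off (sums 114 and 103 FPKM). No marker list was at 0 in either library. The part of these cell types in the values of the members was not tested.

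**Figure D4:**
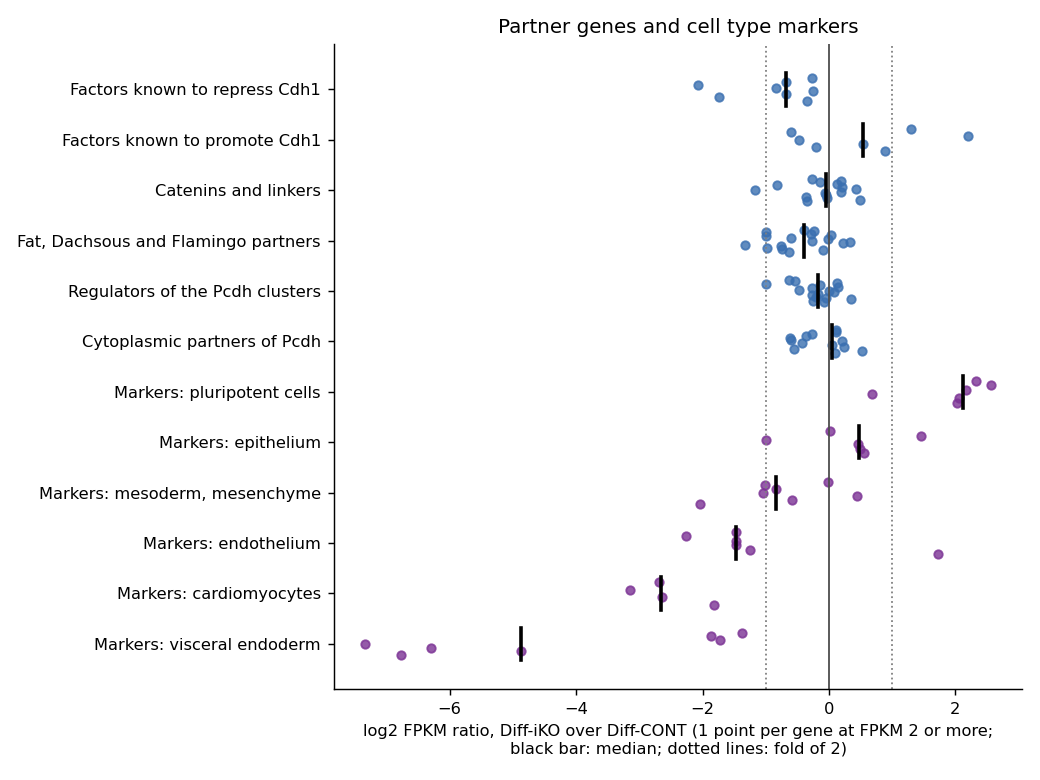
The plot of partner genes and markers shows 1 point per gene at FPKM 2 or more, with the log2 FPKM ratio of Diff–iKO over Diff–CONT on the x axis and black bars at the median of the points. The catenins lie around 0, and 12 of the 17 regulators of the arrays lie left of it. The repressors of Cdh1 all lie left of 0 and the pluripotency markers right of it. The desmosomal, trophoblast and neural lists are not plotted.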

How the data were processed

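The authors sequenced poly(A) RNA (TruSeq Stranded mRNA, paired-end, NextSeq) and deposited FPKM values per gene. Their methods name STAR 2.7.9a, mm10, and Cuffquant and Cuffnorm of Cufflinks 2.2.1. The gene annotation and the strand setting are not given in the sources used here. The 2 libraries were grouped by their labels. Ratios were taken without a pseudocount, and medians with 0.1 added. Fragments were recovered by dividing FPKM by the value of 1 fragment for the shortest curated RefSeq transcript in GENCODE M21: 80.4% and 80.3% of low values were whole within 0.1, against 20% by chance, and the fit was tested on simulated data. For a gene with several transcripts the fragment number is a rough one, and 2 members had no length. Named members are those at FPKM 2 or more, the highest of each subgroup and those nearest the cut-off. From the partner lists come the highest gene and those past the cut-off, and marker lists are given mainly by counts and sums, with a few genes named. Other names, such as Fat2, Cdh15, Pcdh20, Pcdhga9, Pcdhga12, Esrp1, Grhl2, Ovol2, Dnmt3b and Cldn6, were chosen after their values were seen. A member that cleared FPKM 2 in 1 library only is favoured to differ by that minimum. Members and lists were chosen with earlier results of these data known. Pals1 and Cdhr4 were not matched by symbol. Values were computed in Python 3.11.15 with scipy 1.17.1, pandas 2.3.3 and numpy 2.4.6, and plotted with matplotlib 3.10.9. Alternatives changed the FPKM minimum, the fold, the pseudocount and the scaling.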

Additional observations from a re-analysis of the deposited data

How the results depend on the processing

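The count of 6 members lower past the cut-off became 12 at an FPKM minimum of 1, 3 at a minimum of 5, 25 with no minimum, 3 with a pseudocount of 1 (Cdh13, Cdh5 and Pcdh8), 16 at a fold of 1.5 and 0 at a fold of 4. The count of 0 higher became 1 at a minimum of 1 (Fat2), 6 with no minimum and 3 at a fold of 1.5 (Cdh1, Fat1 and Pcdhgb2). Scaling both libraries to the same FPKM sum shifted all log2 ratios by -0.094 and gave 9 lower and 0 higher, the added genes being Pcdh18, Pcdh7 and Pcdhgc3. It moved the median of the Fat group to -0.68 and the sums of Pcdhb and Pcdhg to -0.66 and -0.65, and left Pcdh1 at 0.009. At a mean FPKM of at least 5, Pcdhgc3 was the only clustered gene left, so the medians of the clustered genes and of Pcdhg became its own ratio, -0.95. Without its highest member the Pcdha sum gave -0.20 and the Pcdhg sum -0.23. Among the results recomputed under these alternatives, Cdh24 changed sign, from 0.06 to -0.03 with the same FPKM sum, as did Cdh9, from 0.08 to -0.01, and both intervals included 0. Fragments from the longest transcript, an alternative chosen after seeing the data, gave 27 lower and 8 higher beyond counting error. No paired analysis was possible because there was 1 library per condition, and for the same reason no replicate could be left out. Depth limits members under 3 fragments, 6 in Diff–CONT and 4 in Diff–iKO.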
